A study of Mus musculus with 6 samples.

Results

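The 7 genes described here belong to a pair of interacting families of transcription regulators, measured in LT-HSC (long-term haematopoietic stem cells) of Itpkb-/- and wild-type mice. They are the DNA-binding Runx factors Runx1, Runx2 and Runx3, their shared partner subunit Cbfb, and the ETO family corepressors Runx1t1, Cbfa2t2 and Cbfa2t3. They were picked by gene symbol, as families, from the deposited table, in which 15599 genes had a read in at least 1 library, and all 7 were found. The set was chosen by name but with the genotype differences of these same 6 libraries already known. Calls on the members are therefore a description of the libraries and support nothing beyond it. The study sequenced RNA from LT-HSC of C57BL/6 mice, sorted from lineage-depleted bone marrow as LSK cells (lineage negative, Sca-1 and Kit positive) with the surface profile CD34-CD150+CD48-Flk2-. There were 3 libraries from Itpkb-/- mice, whose Ms T-less allele was induced by ENU, a chemical mutagen, and 3 from littermate controls (wild type). A library came from a pool of 4 age-matched mice with at least 10000 sorted cells, so it gives 1 value per pool and hides the spread between mice; the ages are not given in the sources used here, and no treatment is named.

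Runx proteins bind a short DNA sequence through their Runt domain, and Cbfb, which does not touch DNA itself, raises that affinity. Runx1 is required for blood stem cells to arise in the embryo, Runx2 is best known for bone formation, and Runx3 acts in T cells and in sensory neurons. ETO proteins do not bind DNA on their own: they bring histone deacetylases and other corepressors to transcription factors. In acute myeloid leukaemia a chromosome translocation fuses the Runt domain of RUNX1 to RUNX1T1. Itpkb phosphorylates a soluble inositol phosphate that is a second messenger.

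The libraries held 4024203 to 7470329 reads over genes, and 3 reads, taken as the floor of detection, were worth 0.393 to 0.746 normalized CPM (the authors' CPM after scaling between libraries, where CPM scales the reads of each library to the same total). Itpkb itself was at 22.1, 23.6 and 25.1 normalized CPM in wild type and 10.2, 13.99 and 18.2 in Itpkb-/-. The groups did not overlap, and the log2 difference of -0.73 had a limma adjusted p of 0.172, or 0.0541 with the replicate number as a block. An ENU allele can leave its transcript in place, so this level is a weak check of the labels. The stem cell markers were present in every library: all 14 passed the filter on low values. Their summed level was 2109 to 2812 normalized CPM in Itpkb-/- and 3481 to 4187 in wild type. Of the 14, 6 were called lower in Itpkb-/- and 0 higher (42.9% called, against 5.5% of all genes tested). With the block 11 were called lower, where 18.1% of all genes were called. The sum of 10 granulocyte genes in libraries 1 to 3 was 6160, 18208 and 904 normalized CPM in Itpkb-/- against 3549, 2590 and 688 in wild type. It was highest in Itpkb-/- library 2 and higher in Itpkb-/- within each same-numbered pair. Of these 10 genes limma called 0 (1 at an unadjusted p under 0.05), edgeR 0 and DESeq2 2. Limma with the block called all 10, as higher, where 18.1% of all genes were called. In such bulk samples, fewer cells of a type and less RNA per cell cannot be told apart.

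Of the 7 genes, 2 were lower in Itpkb-/- LT-HSC, 1 was higher and 4 did not pass the test. Runx1t1 fell furthest, Cbfa2t3 fell moderately and Runx3 rose moderately. The test was limma on log2 of the normalized CPM plus 1, and genes with an adjusted p up to 0.15, the limit in the series design text, were called; at 0.05, Runx1t1 was the 1 member called. Over all 12008 genes tested, 3.24% were called lower, 2.27% higher and 5.5% in either direction. With the replicate number as a block the same 7 genes gave 3 calls, where the share of all genes called was 18.1%. For 3 of the 7 genes all libraries of 1 genotype lay above all of the other, against 21.3% of all genes tested. Since the set was proposed with this contrast known, nothing is read from these counts.

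**Figure D1:**
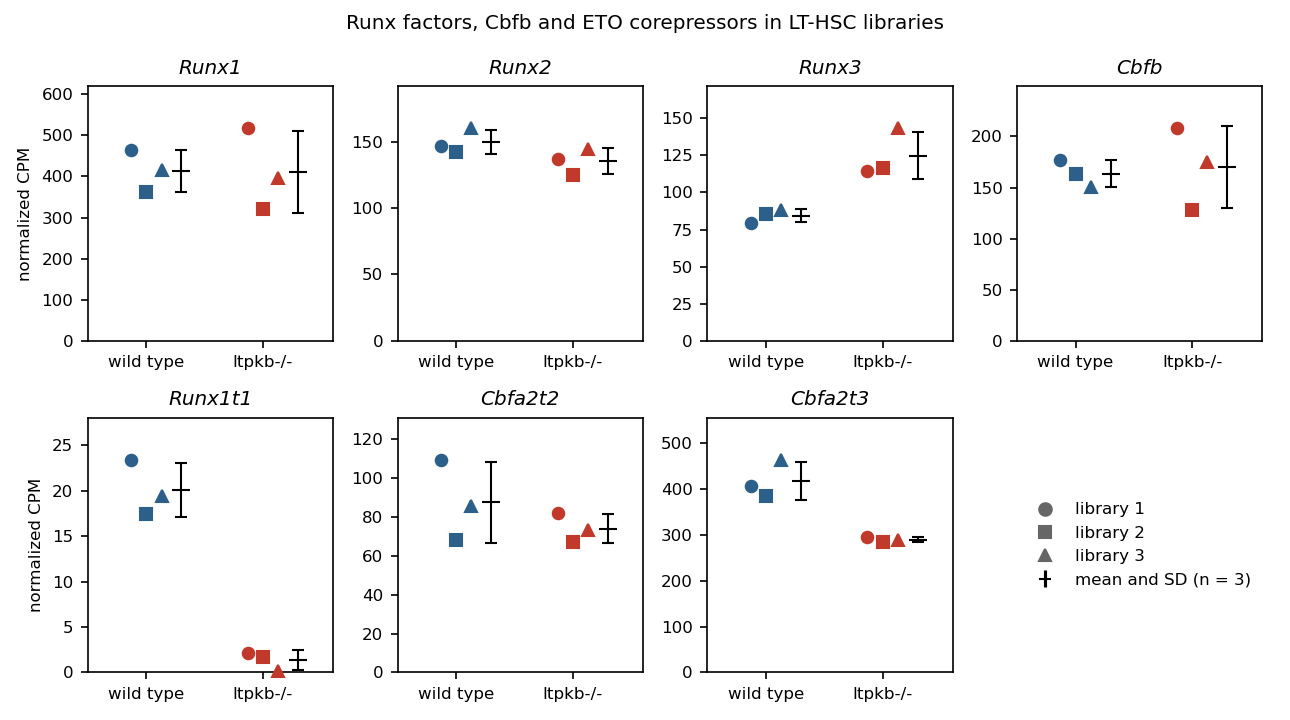
Normalized CPM (vertical axis, from 0, a separate scale for each gene) of the 7 genes in each wild-type (blue) and Itpkb-/- (red) library; marker shapes give the library number and bars the mean and SD of 3 libraries. The Itpkb-/- points of Runx1t1 lie at 0.131 to 2.18 and its wild-type points at 17.5 to 23.4, Cbfa2t3 is separated with the Itpkb-/- libraries lower, Runx3 is separated with them higher, and the points of the other genes overlap.

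Among the ETO corepressors, Runx1t1 (ENSMUSG00000006586, mm10 chr4:13743436-13893649, plus strand) was far lower in the Itpkb-/- libraries. Its product, also called ETO, is the corepressor portion of the leukaemia fusion and is better known from brain than from blood. It stood at 23.4, 17.5 and 19.4 normalized CPM in wild-type libraries 1 to 3, from 94, 117 and 104 reads. In the Itpkb-/- libraries it stood at 2.18, 1.71 and 0.131, from 10, 11 and 1 reads. The groups were far apart, and Itpkb-/- library 3 lay below its own floor of 0.393. The means were 1.34 ± 1.07 (SD, n = 3) in Itpkb-/- and 20.1 ± 3.01 (SD, n = 3) in wild type. The limma log2 difference was -3.29 (SE 0.40, 95% interval -4.17 to -2.42) with an adjusted p of 0.00340. Adding 1 before taking logs shrinks such a low gene, and edgeR on the recovered reads gave -3.99 with an adjusted p of 0.00520.

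Counting error alone bounds the ratio as well. With library sizes taken into account, the 315 wild-type reads of Runx1t1 against 22 in Itpkb-/- came to 16.6-fold (95% exact interval 10.8 to 26.9, counting error only). For Itpkb-/- library 3, with its 1 read, the ratio was 149 with an interval of 26.6 to 5921. Its difference was the lowest of the 12008 genes tested, and it kept that place in 13 of 17 alternative analyses. Without Itpkb-/- library 3 it was the fifth lowest, with a log2 difference of -2.83. By edgeR it ranked 8 from the lowest and by DESeq2, which was run without the filter on low values, 79. It was called in all 17 alternatives, with adjusted p from 2.309e-11 to 0.0428. The mean over the 6 libraries, 3.42 on the log2 scale, is under the limit of 4 that the series design text set for the study's own gene list. No other annotated gene overlaps an exon of Runx1t1.

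Cbfa2t3 (ENSMUSG00000006362, mm10 chr8:122625141-122699109, minus strand) encodes the corepressor that sits in complexes with Tal1, Lyl1 and Gata factors in blood progenitors. It was at 406, 384 and 463 normalized CPM in wild type and 294, 284 and 289 in Itpkb-/-. The lowest wild-type library lay well above the highest Itpkb-/- library, and the Itpkb-/- values were within a few percent of each other. The means were 289 ± 5.26 (SD, n = 3) and 418 ± 40.9 (SD, n = 3), a wild-type level 1.44-fold that of Itpkb-/-. The log2 difference was -0.52 (SE 0.12, 95% interval -0.79 to -0.26) with a limma adjusted p of 0.0595. It was called in 13 of 17 alternatives. The call was lost without Itpkb-/- library 2 (adjusted p = 0.151), without wild-type library 3 (0.292), without both libraries numbered 2 (0.274) and with the granulocyte level as a covariate (0.239). The log2 difference in these 4 analyses was -0.57 to -0.45, close to the value from all libraries. An antisense gene, Gm10612, overlaps 295 bases of its exons, and the library kit does not mark strand. The summed stem cell markers were lower in the same libraries as Runx1t1 and Cbfa2t3, and their part in either difference was not tested.

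Cbfa2t2 (ENSMUSG00000038533, mm10 chr2:154436481-154539356, plus strand), the third of the family and a corepressor with a known role in germ and pluripotent cells, did not pass the test. It was at 109, 68.0 and 85.6 normalized CPM in wild type and 81.9, 67.0 and 73.4 in Itpkb-/-. The wild-type libraries spread widely and enclosed most of the Itpkb-/- values. The log2 difference was -0.22 (SE 0.18), and its 95% interval of -0.62 to 0.18 also holds a fall of the size seen for Cbfa2t3. Whether the ETO genes differ from each other in their response was not tested. The log2 ratio of Cbfa2t3 to Cbfa2t2 was 1.84, 2.08 and 1.98 in Itpkb-/- and 1.89, 2.50 and 2.44 in wild type, which overlap.

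**Figure D2:**
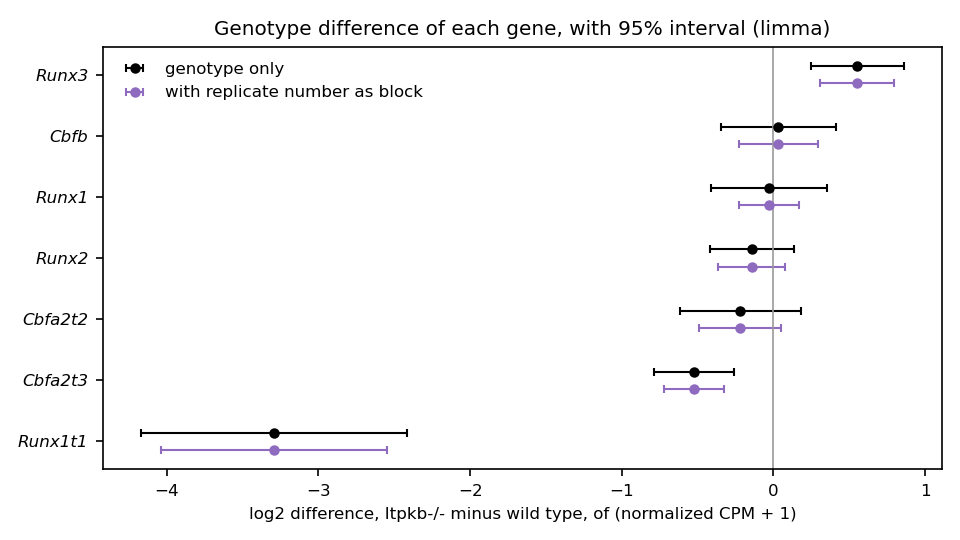
Log2 difference of each of the 7 genes (horizontal axis, Itpkb-/- minus wild type, of normalized CPM plus 1) with its 95% interval from limma, for genotype alone (black) and with the replicate number as a block (purple). The intervals of Runx1t1 and Cbfa2t3 lie below 0 and that of Runx3 above 0 in both, and those of the other 4 genes span 0.

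The summed ETO level per kilobase of exon was 44.9, 41.8 and 43.1 normalized CPM per kb in Itpkb-/- and 64.1, 55.9 and 67.6 in wild type. The groups did not overlap. Cbfa2t3 made up 79.8% ± 1.39 of that sum in Itpkb-/- and 79.8% ± 3.58 in wild type (SD, n = 3 each), and these libraries overlapped. Runx1t1 made up 4.04% ± 0.501 in wild type and 0.387% ± 0.306 in Itpkb-/-. Cbfa2t2 filled the rest, with 16.1% ± 3.12 in wild type and 19.8% ± 1.30 in Itpkb-/-, again with overlap. In every library of both genotypes Runx1t1 was the least abundant of the 3 transcripts.

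**Figure D3:**
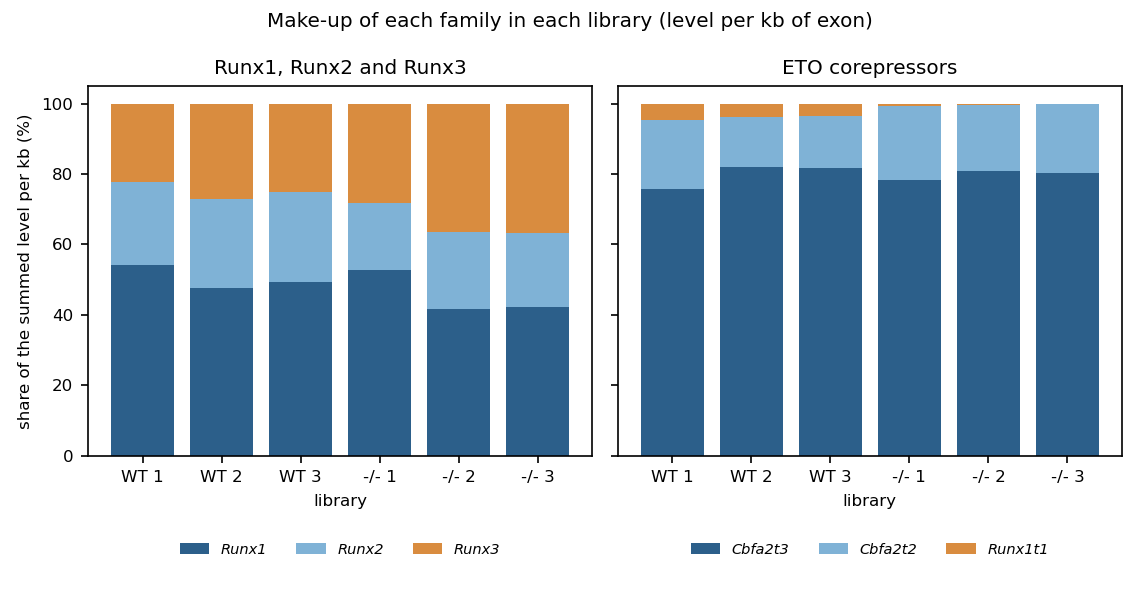
Share (%, vertical axis) of each gene in the summed level per kb of exon of the Runx factors (left) and the ETO corepressors (right), 1 bar for each library. The Runx1t1 segment falls from 4.04% on average in wild type to 0.387% in Itpkb-/-, the Cbfa2t3 segment averages 79.8% in both, and the Runx3 segment is 22.3% to 27.1% in wild type and 28.2% to 36.7% in Itpkb-/-.

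Among the Runx factors, Runx3 was higher in the Itpkb-/- libraries. Runx3 (ENSMUSG00000070691, mm10 chr4:135120652-135177990, plus strand) is the member of the family that silences Cd4 in cytotoxic T cells. It was at 79.3, 85.8 and 88.1 normalized CPM in wild type and 115, 116 and 143 in Itpkb-/-. All 3 Itpkb-/- libraries lay above all wild-type libraries, and Itpkb-/- library 3 was the highest. The means were 125 ± 15.9 (SD, n = 3) and 84.4 ± 4.53 (SD, n = 3), a 1.48-fold difference. The log2 difference was 0.55 (SE 0.14, 95% interval 0.24 to 0.86) with a limma adjusted p of 0.0870. It was called in 12 of 17 alternatives and stayed positive in all of them. The call was lost without Itpkb-/- library 3 (adjusted p = 0.186), without wild-type library 1 (0.221), 2 (0.197) or 3 (0.265), and without both libraries numbered 2 (0.306), with log2 differences of 0.45 to 0.61.

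Runx3 is well known from T cells, so the 8 T and NK cell genes are given beside it. Cd3g and Cd8a had 0 reads in all 6 libraries, and Cd3e and Cd3d stayed below 1 normalized CPM. Cd4 (2.69 to 9.31), Lck (2.61 to 6.13) and Klrb1c (2.23 to 4.97) had reads in every library, with overlap between the genotypes. Nkg7, a granule protein gene, was at 86.6 to 278 in Itpkb-/- and 55.7 to 106 in wild type. The list summed to 99.3 to 291 normalized CPM in Itpkb-/- and 72.6 to 119 in wild type. Of the 8 genes, 4 passed the filter on low values and 0 were called by limma, edgeR or DESeq2, with 1 at an unadjusted p under 0.05. With the block 1 was called, Nkg7 (adjusted p = 0.000792), higher in Itpkb-/-, where 18.1% of all genes were called. Of 7 megakaryocyte genes tested, Itga2b and Selp were called higher (28.6% called, against 5.5% of all genes). The log2 difference was positive for 4 of the 7. It was negative and uncalled for Vwf (-0.28), Ppbp (-0.16) and Gp9 (-0.05). The summed level of that list was 832 to 1767 normalized CPM in Itpkb-/- and 708 to 873 in wild type. These ranges overlapped, and Itpkb-/- library 3 was the highest. The part of these cells in the Runx3 result was not tested.

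Runx1 (ENSMUSG00000022952, mm10 chr16:92601466-92826149, minus strand), the stem cell factor of the family, was at 463, 362 and 416 normalized CPM in wild type and 516, 320 and 397 in Itpkb-/-. Libraries numbered 1 were the highest and those numbered 2 the lowest in both genotypes. The means were 411 ± 99.1 and 414 ± 50.7 (SD, n = 3 each). The log2 difference of -0.03 (SE 0.17) did not pass the test, and its sign changed in 4 alternatives; the 95% interval of -0.41 to 0.35 bounds what these libraries can show. Gm26626, an antisense gene, overlaps 106 bases of its exons.

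Runx2 (ENSMUSG00000039153, mm10 chr17:44495987-44814797, minus strand) was also present, at 147, 142 and 160 normalized CPM in wild type and 137, 125 and 145 in Itpkb-/-. The ranges overlapped, although each Itpkb-/- library lay below the wild-type library of the same number. Its log2 difference was -0.14 (SE 0.13, 95% interval -0.42 to 0.13), with a limma adjusted p of 0.644. Runx2 is the leading regulator of bone-forming cells, and the 9 osteoblast and stroma genes summed to 32.6 to 57.1 normalized CPM in Itpkb-/- and 18.8 to 23.0 in wild type. Sp7, Bglap and Lepr had 0 reads in every library, while Col1a2, a collagen gene, was at 7.34 to 12.9 in all 6. Pdgfrb, a growth factor receptor gene, was at 23.2 to 43.5 in Itpkb-/- and 8.005 to 10.3 in wild type and was called higher. Alpl, Cxcl12, Col1a1 and Pdgfra were each at 0 in at least 1 library and reached at most 2.10. The part of these cells in the Runx2 values was not tested. Runx2os1, on the opposite strand, overlaps 519 bases of Runx2 exons.

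Within the Runx family, Runx3 made up 28.2%, 36.4% and 36.7% of the summed Runx level per kb in Itpkb-/- and 22.3%, 27.1% and 25.0% in wild type. Runx2 made up 20.7% ± 1.53 in Itpkb-/- and 24.9% ± 1.28 in wild type, and Runx1 45.6% ± 6.25 and 50.3% ± 3.52 (SD, n = 3 each). The groups did not overlap for Runx3 and Runx2 and overlapped for Runx1. The log2 ratio of Runx3 to Runx2 was -0.26, -0.10 and -0.02 in Itpkb-/- and -0.89, -0.73 and -0.86 in wild type, so the pair was closer to parity in Itpkb-/-. The summed Runx level was 74.5 ± 9.23 and 68.2 ± 4.22 normalized CPM per kb (SD, n = 3 each), which overlapped. With the longest transcript as the length in place of all exons, Runx3 made up 26.4% ± 4.42 and 18.9% ± 2.08 (SD, n = 3 each), still without overlap. On that length Runx2 made up 17.2% ± 1.71 in Itpkb-/- and 20.1% ± 1.31 in wild type (SD, n = 3 each), and its groups overlapped.

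The distal promoters of all 3 Runx genes carry the same stretch of DNA, shown here because it holds the letters that Runx proteins are known to recognise. Promoter sequences covered 250 bases before and 50 after each transcript start and came from RefSeq (GRCm38.p6, the mm10 assembly). Of the 7 genes, 6 matched, with 9 promoters; Runx1t1 had no entry. Capitals mark an 18-base run shared letter for letter, which holds ACCACA, the core of the Runx recognition site, at 2 places.
Runx1: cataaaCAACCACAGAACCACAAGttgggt
Runx2: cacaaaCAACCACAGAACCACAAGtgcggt
Runx3: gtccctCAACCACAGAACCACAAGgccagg
The Runx1 sequence is chr16:92826025-92826054 on the minus strand and the Runx2 sequence is chr17:44814583-44814612 on the minus strand. The Runx3 sequence is chr4:135120503-135120532 on the plus strand. The run begins 27 bases into the Runx1 transcript and 22 bases into that of Runx2, and 136 bases before the Runx3 start (position -136).

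The 18-base run occurred in 4 of 32851 mouse promoters, 0.0122%. The fourth is that of Gm16225, whose window runs opposite to the distal Runx3 window and overlaps it by 232 bases, so it is the same copy. The 6-letter core ACCACA on either strand was found in 5506 promoters (16.8%) and at 2 or more places in 595 (1.81%). Among the members it occurred at 2 places in the distal Runx1 and Runx3 promoters and at 3 in that of Runx2. It was not among the letters of the other 6 member promoters, those of Cbfb, Cbfa2t2 and Cbfa2t3 included. A match is a description of the sequence and not evidence of binding, and the 3 genes that share the run were a called rise (Runx3) and the uncalled values of Runx1 and Runx2 given above.

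Cbfb (ENSMUSG00000031885, mm10 chr8:105170674-105217989, plus strand), the subunit all Runx factors share, did not pass the test. It was at 177, 164 and 150 normalized CPM in wild type and 208, 128 and 175 in Itpkb-/-. The Itpkb-/- libraries spread on both sides of the wild-type range. The log2 difference was 0.03 (SE 0.17, 95% interval -0.35 to 0.41), and its sign changed with total-count scaling and without any of 3 single libraries. The summed Runx level stood at 1.55 ± 0.190 times the Cbfb level per kb in Itpkb-/- and at 1.46 ± 0.148 times in wild type (SD, n = 3 each), which overlapped.

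Per kilobase of exon in wild type, Cbfa2t3 (49.9 ± 4.88 normalized CPM per kb, SD, n = 3) and Cbfb (47.0 ± 3.76) were highest and did not differ beyond their spread. Runx1 followed at 34.4 ± 4.22, and then Runx2 at 16.9 ± 1.03 and Runx3 at 16.9 ± 0.905 which did not differ beyond their spread. Cbfa2t2 came next at 10.1 ± 2.40, and Runx1t1 was far below at 2.52 ± 0.378. In Itpkb-/- the order was Cbfb (48.9 ± 11.6), Cbfa2t3 (34.5 ± 0.629), Runx1 (34.2 ± 8.24), Runx3 (24.9 ± 3.18), Runx2 (15.3 ± 1.14), Cbfa2t2 (8.57 ± 0.865) and Runx1t1 (0.168 ± 0.135). Cbfa2t3 and Runx1 were neighbours there that did not differ beyond their spread, and so were Runx1 and Runx3. The order at the top depends on the length used: per kb of the longest transcript, the wild-type levels were 70.6 for Runx1, 56.6 for Cbfb and 54.6 for Cbfa2t3.

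**Figure D4:**
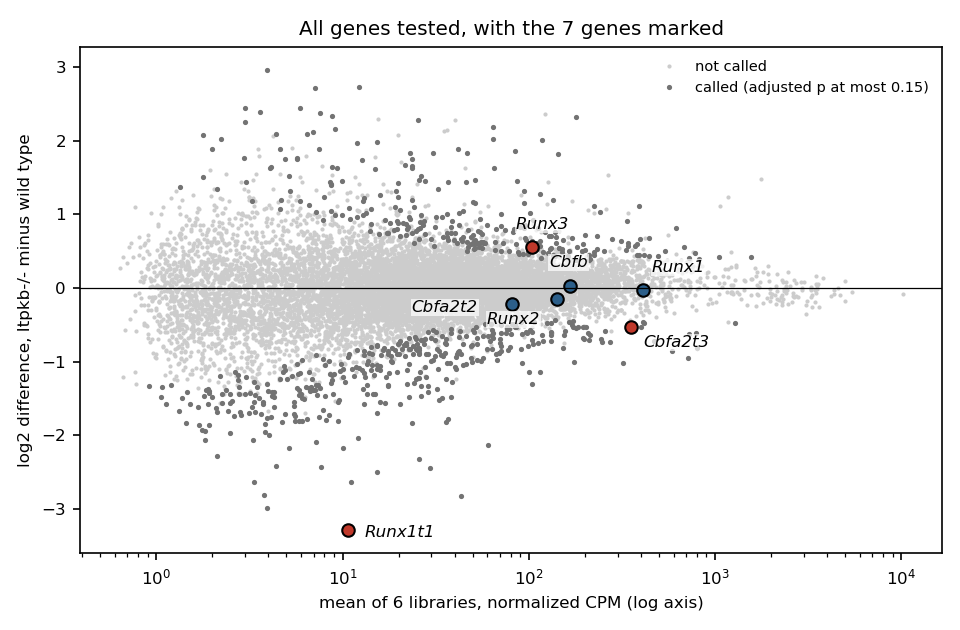
The horizontal axis is the mean level over the 6 libraries (normalized CPM, log axis). The vertical axis is the log2 difference, Itpkb-/- minus wild type, of normalized CPM plus 1. The 12008 genes tested are shown, with the 7 genes marked. Runx1t1 has the lowest difference of all, -3.29, at a low mean level, and the other 6 lie between -0.52 and 0.55 among well expressed genes.

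For each member, the genes most like it in profile were those with the highest Pearson correlation over the 6 libraries, among 10458 candidates. With 6 points that share depth and genotype, these values describe the libraries and have no p. Closest to Runx1t1 were Car2 (r = 0.985), a carbonic anhydrase gene, Prepl (0.985) and Dync2h1 (0.983). Car2 was at 915, 822 and 900.4 normalized CPM in wild type and 639, 556 and 512 in Itpkb-/-. Closest to Cbfa2t3 were Atn1 (0.994), Plxna1 (0.993) and Fkbp1a (0.990). Closest to Runx3 was Itga2b (0.997), an integrin gene of megakaryocytes and early progenitors, then Lphn1 (0.995) and Ehd3 (0.995). Runx1 ran with Elk4 (0.998), Cd84 (0.990) and Klhl4 (0.988), and Cbfb with Slc38a7 (0.991), Mysm1 (0.984) and Smad7 (0.977). For Runx2 they were Kdelc2 (0.998), Tmc4 (0.990) and Zfp286 (0.989), and for Cbfa2t2 they were Trim34a (0.991), Llgl2 (0.989) and Cep85l (0.985).

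Genes that work with these families were taken from 4 lists. The first was 17 transcription factors that bind beside Runx in stem cells, such as Tal1, Gata2, Fli1 and Erg. All 17 passed the filter on low values and 0 were called by limma, against 5.5% of all genes. The median log2 difference was -0.06 against 0.00 for all genes. At an unadjusted p under 0.05 there were 4, edgeR and DESeq2 called 1 each, and with the replicate number as a block 8 of the 17 were called, 2 higher and 6 lower, where 18.1% of all genes were. Lyl1, a partner of Cbfa2t3, had the smallest p: it was at 102, 113 and 118 normalized CPM in wild type and 61.9, 85.6 and 87.9 in Itpkb-/-. Its groups did not overlap, and the log2 difference was -0.51 with a limma adjusted p of 0.157, or 0.0185 with the block. Ets1, which binds DNA jointly with Runx1, was at 32.6, 20.2 and 21.2 in wild type and 32.5, 40.7 and 35.3 in Itpkb-/-, with a log2 difference of 0.56 and an adjusted p of 0.250, or 0.109 with the block.

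The second list held 20 modifiers and cofactors of Runx proteins, among them acetyltransferases, methyltransferases and Groucho corepressors. Of the 19 tested, 1 was higher and 1 lower (10.5% called, against 5.5% of all genes), with a median log2 difference of -0.09. Cdk6, a cell cycle kinase that also binds Runx1, was at 244, 248 and 246 normalized CPM in wild type and 625, 465 and 519 in Itpkb-/-. Every Itpkb-/- library was far above the narrow wild-type range, and the log2 difference of 1.11 had a limma adjusted p of 0.00325. Wwtr1, a Hippo pathway coactivator that binds Runx proteins, was low, at 6.47, 3.74 and 5.40 in wild type and 1.74, 1.24 and 1.57 in Itpkb-/-. Its log2 difference was -1.28 with an adjusted p of 0.102. With the replicate number as a block, 2 genes were higher and 3 lower of 19, against 18.1% of all genes called.

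The third list was the corepressor complex of the ETO proteins, 17 genes for histone deacetylases, Sin3 proteins, E proteins and others. All were tested, 0 were higher and 2 lower (11.8% called, against 5.5% of all genes), and the median log2 difference was 0.02. The replicate number as a block gave 1 higher and 2 lower, where 18.1% of all genes were called. The gene newly called higher was Zbtb16 (limma adjusted p = 0.179, or 0.0886 with the block). Ssbp3, a subunit that joins Ldb1 complexes, was at 63.2, 76.5 and 83.4 normalized CPM in wild type and 50.5, 47.7 and 42.3 in Itpkb-/-. The groups did not overlap, and the log2 difference was -0.65 with a limma adjusted p of 0.0802. Hdac3, a deacetylase of the complex, was at 46.8, 34.7 and 48.0 in wild type and 51.6, 46.6 and 50.2 in Itpkb-/- (adjusted p = 0.628), and was named after its values were seen.

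**Figure D5:**
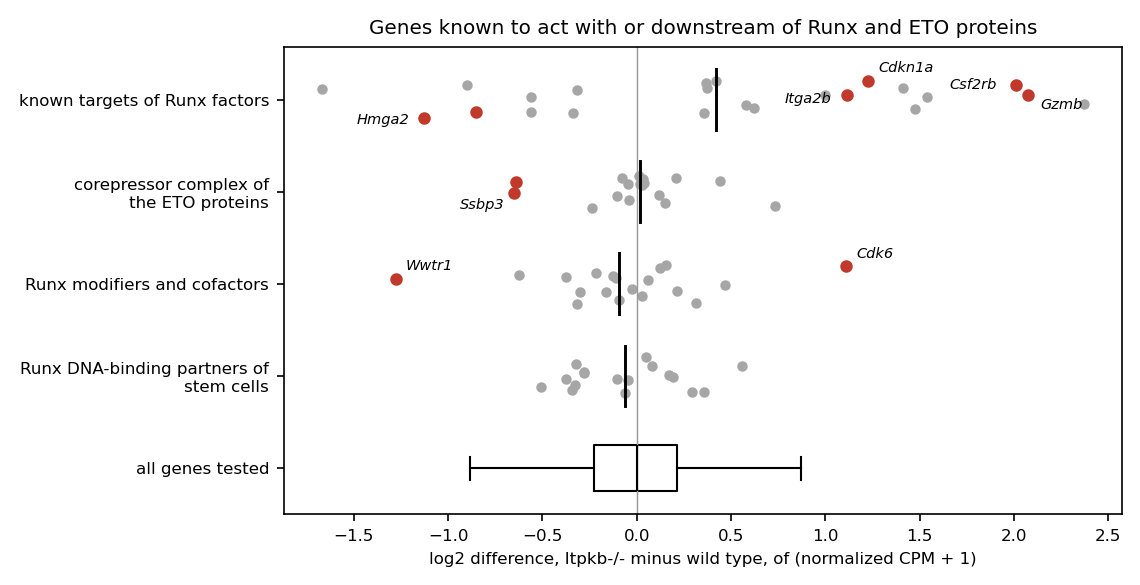
Log2 difference (horizontal axis, Itpkb-/- minus wild type, of normalized CPM plus 1) of the genes tested in each of 4 lists; red points were called, with names for those described in the text, grey points were not, and black bars are the list medians. The box below gives the median and quartiles of all 12008 genes; its whiskers reach at most 1.5 times the box length beyond it. The medians of 3 lists lie between -0.09 and 0.02 and that of the known targets at 0.42.

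The fourth list was 33 genes known as Runx targets in blood, T cells or bone, of which 23 passed the filter and 7 had 0 reads in every library. In Itpkb-/-, 4 were higher and 2 lower (26.1% called, against 5.5% of all genes). Gzmb, among the 4 higher, passed the filter only through the Itpkb-/- libraries. The median log2 difference was 0.42, and 11 of the genes had an unadjusted p under 0.05. With the replicate number as a block, 9 of the 23 were higher and 7 lower, against 18.1% of all genes called. Csf2rb, the shared signalling chain of the GM-CSF and related receptors, was at 60.4, 42.7 and 36.3 normalized CPM in wild type and 175, 223 and 166 in Itpkb-/- (log2 difference 2.01, limma adjusted p = 0.00161). Reads of Csf2rb can be split with its near-identical neighbour Csf2rb2. Itga2b, also the gene most like Runx3, was at 129, 145 and 144 in wild type and 266, 267 and 390 in Itpkb-/- (log2 difference 1.12, adjusted p = 0.00831). Both were well separated between the genotypes.

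Other called targets were at low levels. Gzmb, granzyme B, was at 4.14, 5.28 and 1.31 normalized CPM in Itpkb-/- and had 0 reads in every wild-type library. It was at least 6.12-fold higher against a floor of 3 reads for each library, with a limma adjusted p of 0.0506. With Gzmb at that bound the list median stays at 0.42. Gzmb passed the filter on low values only through the Itpkb-/- libraries, so it could be called only as higher. Cdkn1a, a cell cycle inhibitor, was at 12.2, 7.17 and 3.91 in wild type and 24.2, 17.6 and 13.5 in Itpkb-/- (adjusted p = 0.135). Hmga2, a chromatin protein of fetal stem cells, was at 14.4, 14.9 and 11.5 in wild type and 7.19, 5.28 and 4.72 in Itpkb-/-, a log2 difference of -1.13 with an adjusted p of 0.0717. For each of these genes the groups did not overlap.

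Some of these targets also mark cell types. Mpo, Elane and Ctsg, which were not called (but each was with the block, as higher), belong to the granulocyte genes as well, and Mpo was at 263, 817 and 97.7 normalized CPM in wild type and 588, 8728 and 88.5 in Itpkb-/-. Itpkb-/- library 2 stood far above the rest, the genotypes overlapped, and the log2 difference was 1.48 with a limma adjusted p of 0.638, or 0.0309 with the block. Without that library, 3 targets were called in place of 6, and without both libraries numbered 2 also 3. Calls over all genes fell as well, from 661 to 266 without that library and to 139 without both. Itga2b is a megakaryocyte gene. Gzmb stands on the list of 6 mast cell and basophil genes, of which 5 were tested. Of these, 2 were called higher (Gzmb and Fcer1a) and 0 lower (40% called, against 5.5% of all genes). Here too Gzmb counts through the Itpkb-/- libraries alone. The median log2 difference of that list was 0.05, with Mcpt8 at -1.16 and Prss34 at -1.09, neither called. It summed to 10.2 to 32.8 normalized CPM in Itpkb-/- and 10.01 to 20.1 in wild type. The part of these cell types in the counts was not tested.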

How the data were processed

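Libraries were made from 1 to 5 ng of RNA, per the labels' protocols, with a NuGEN Ovation kit that does not mark strand. Per the submitters' processing notes the reads passed through CASAVA 1.8.2, cutadapt, TopHat2 2.0.8b (build mm10), Partek and edgeR. TopHat 1.4.1 and Partek 6.6 are the versions in the series design text. The authors deposited a signal per gene, CPM divided by a normalization factor for each library, called normalized CPM here. Every value (100%) lay within 0.01 of a whole number of reads, so reads were recovered.

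The test was limma 3.58.1 (R 4.3.3) on log2(value + 1) with the trend option, over the 12008 genes with at least 1 normalized CPM in at least 3 libraries, with Benjamini-Hochberg adjustment over all of them. The limma log2 differences are on this scale. Fold values for Cbfa2t3 and Runx3 are ratios of mean normalized CPM. That of Runx1t1 uses reads and library sizes, and that of Gzmb the floor of 3 reads. The 3 libraries of each genotype were separate pools per the labels. Same-numbered libraries deviated together (correlations of 0.268 to 0.296, against -0.227 to -0.0475 for other pairs). Deviations were taken from the mean of each genotype, so positive values for some pairs force negative ones for others. The labels state no pairing. The main test therefore used genotype only, and a fit with the replicate number as a block was an alternative. The fit with this block is given beside results whose call it changes. Other alternatives were edgeR 4.0.16 and DESeq2 1.42.0 on the reads, other pseudocounts, filters and scalings, each library left out, both libraries numbered 2 left out, and the mean of the granulocyte genes as a covariate. The script was tested on simulated data.

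The members and lists were chosen with earlier results of these data known. Named genes were the 7 members, Itpkb, the called genes of each list (or the 2 with the smallest p) and the 3 genes most correlated with each member among those with a mean of at least 4; some list genes are not reported here. Positions and exon lengths are from GENCODE, promoters from RefSeq. Transcripts of the members share at most 0.142% of their 36-base stretches. Intervals and floors from reads cover counting error only.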

Additional observations from a re-analysis of the deposited data

How the results depend on the processing

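Runx1t1 was called lower in all 17 alternatives, and Cdk6, Csf2rb and Itga2b kept their calls in all of theirs. Of 320 values of the 19 genes followed under alternatives, 259 kept direction and side of the threshold, 47 fell short of it, 6 newly passed and 8 reversed, all 8 in genes that were not called. Runx1 turned to 0.14 without Itpkb-/- library 2, 0.05 without wild-type library 1, 0.0440 without both libraries numbered 2 and 0.0414 with the granulocyte covariate; leaving out single libraries gave -0.21 to 0.14. Cbfb turned to -0.00355 with total-count scaling, -0.12 without Itpkb-/- library 1, -0.00176 without Itpkb-/- library 3 and -0.03 without wild-type library 3; leaving out single libraries gave -0.12 to 0.22.

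The replicate block, which pairs libraries by number, raised the genes called from 661 to 2176 (1099 higher, 1077 lower). Calls among the DNA-binding partners rose from 0 to 8 and among the modifiers from 2 to 5. Those of the ETO complex rose from 2 to 3 and of the targets from 6 to 16. The block changed the call of no member. Without both libraries numbered 2 the calls were 139 genes, 1 member, 1 modifier, 0 of the ETO complex and 3 targets. With the granulocyte covariate they were 176 genes, 1 modifier and 0 of the ETO complex. At an adjusted p of at most 0.05 there were 182 genes (74 higher, 108 lower) and 1 member. edgeR and DESeq2 each called 1 DNA-binding partner. A mean of at least 4 left 1 modifier and 1 gene of the ETO complex, and no filter or total-count scaling left 1 of that complex. Leaving out single libraries gave 74 to 837 genes, 1 to 3 members, 0 to 2 partners, 1 to 2 modifiers, 0 to 1 of the ETO complex and 2 to 9 targets. Without wild-type library 3, 74 genes and 1 member were called, and Gzmb (adjusted p = 0.206), Hmga2 (0.207), Wwtr1 (0.317), Ssbp3 (0.331) and Cdkn1a (0.402) lost their calls. Without Itpkb-/- library 2, with 266 genes called, Ssbp3 (0.162), Hmga2 (0.180), Gzmb (0.191), Wwtr1 (0.260) and Cdkn1a (0.272) did. Without wild-type library 1, 299 genes were called, and without wild-type library 2, 297. The causes were not tested. With 1 to 11 reads of Runx1t1 in each Itpkb-/- library, its level there has a wide counting error.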

Other observations

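The genes near Runx1t1 on chromosome 4 were looked at after its values were seen. Within 1 Mb of it the table holds 4. Otud6b, a deubiquitinase gene, was at 36.8, 38.7 and 40.6 normalized CPM in wild type and 44.0, 40.6 and 39.2 in Itpkb-/-, and the groups overlapped (log2 difference 0.09, limma adjusted p = 0.850). Triqk was at 4.97, 5.68 and 5.58 in wild type and 5.23, 2.02 and 4.06 in Itpkb-/-, also with overlap (log2 difference -0.49, adjusted p = 0.555). Slc26a7 and Lrrc69 had 0 reads in all 6 libraries.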
